A study of Drosophila melanogaster with 11 samples.

Results

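Genes whose names consist of the letters CR and a number are genes of Drosophila melanogaster that were annotated as not coding for protein, pseudogenes among them. They were selected from the peak tables of a DamID experiment on E(spl)m8-HLH, by taking every gene written as CR and digits among the genes that a peak was said to intersect. In all, 229 such genes were found among 2821 genes named inside a peak, of which 2533 were protein-coding. Peaks had been called with 2 programs. The Qseq table named 179 of the CR genes in 170 of its 3973 peaks, and the MACS table named 162 of them in 164 of its 4209 peaks. Both tables named 112 of the genes, 67 stood only in the Qseq table and 50 only in the MACS table. For comparison, 10.9% of all Release 6 genes on the chromosome arms were named inside a Qseq peak and 14.5% inside a MACS peak. A peak of more than 20 RPM, the reads of a peak per 1000000 reads of the library, chose the members, so that these counts and the heights of the peaks are a description and no test was made on them.

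The study mapped the DNA contacts of Su(H), m5 and m8 in embryos with ChIP and DamID, in 11 libraries of 6 conditions. The tables hold 1 library, labelled DamIDm8 with no mention of a driver. By that label it was taken as 1 of the 2 libraries of the un-driven m8 DamID, and which of the 2 is not said. The other 5 conditions were not analysed here. The embryos of that group carried UAS-m8-DamID with no Gal4 driver, and the leakiness of the UAS transgene supplied the fusion protein at low levels. They were taken whole, at stages 9 to 16, after growth at 26 °C. A signal in few cells and a weak signal in many cells therefore cannot be told apart. None of the 11 libraries is of unfused Dam, and the accessibility of the chromatin to the enzyme and the binding of m8 cannot be told apart. With a single library there was no replicate error. The 95% intervals given are exact Poisson intervals of the reads, or exact Clopper-Pearson intervals of a share, and since PCR reads are not independent molecules they cover counting error only. The RPM values are scaled to 1925156 reads, so that 1 RPM stands for 1.93 reads.

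The m8 gene, one of the E(spl) complex, is switched on by Notch signaling and encodes a transcriptional repressor with a basic helix-loop-helix domain. In DamID it is fused to a bacterial methyltransferase, which marks the adenine of GATC sites close to the places where the protein meets the chromatin. The restriction enzyme DpnI then cuts at marked GATC sites, and the fragments between them are amplified and sequenced. The CR names cover very different kinds of RNA. Long non-coding RNAs (lncRNAs) are transcripts that do not code for protein, some of which run antisense to a coding gene or hold the hairpins of microRNAs. The 5S rRNA genes encode the small RNA of the large ribosomal subunit that RNA polymerase III makes, and lie in a tandem array. The histone genes of the fly lie in another tandem array, in which many repeats also hold an annotated copy of a short RNA gene, sncRNA:430. Transfer RNAs bring the amino acids to the ribosome.

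The numbering of the peaks followed Release 6 on chromosome arm 2L and on the part of 3L below position 5000000. There, each of the 31 member and peak pairs of 2L and each of the 7 of 3L in the Qseq table overlapped in the annotation. Sequence was read only from these regions, on the plus strand of the RefSeq Release 6 genome. The starts of the Qseq peaks are shown first, since they tie the peaks at CR genes to the chemistry of the method. Of 31 member peaks on 2L, 15 started within 5 bp of a GATC, and so did 3 of 6 on the first part of 3L. Over all Qseq peaks the share was 44.5% of 694 on 2L and 46.1% of 193 on 3L. Among the 15 member peaks, 6 at sncRNA:430 started on the same 29 bases, and 2 more there shared another window. These are copies of the same histone repeat and not independent starts. The member peaks of 2L held a median of 0.0 GATC sites per kb in the Qseq table, where 17 of 31 lie at sncRNA:430. In the MACS table, where 20 of 46 lie at sncRNA:430, they held 1.11 per kb. All peaks of 2L held 1.87 and 2.38 per kb. For the lncRNA peaks alone, on 2L and the first part of 3L, the medians were somewhat higher than those of all peaks. They held 2.66 per kb in the Qseq table (20 peaks) and 2.60 in the MACS table (30 peaks). All peaks of these regions held 1.89 and 2.39 per kb. Single lncRNA peaks of the Qseq table held from 0.0 to 5.20 per kb. In the central 400 bp the median was 0.0 for the lncRNA peaks and for all peaks, in each table. The difference of the medians was not tested. The windows shown are centred on the peak start and have the GATC in capitals. They belong to the lncRNA genes CR44080 (chr2L:4259038-4259066), CR43704 (chr2L:3770371-3770399), CR42862 (chr3L:224232-224260), CR43334 (chr3L:642375-642403, the lowest of its 3 peaks that hold no other CR gene), CR43719 (chr2L:307736-307764), CR43241 (chr2L:22131639-22131667) and CR44221 (chr2L:228426-228454).
CR44080: gtgggtggctctGATCcgtcggggtcacc
CR43704: gaatcattacgaccatGATCaccgtcgtg
CR42862: aaaaccctgtgaGATCatcgaaatggtgg
CR43334: gaacttatgccgaccGATCccagtcggat
CR43719: atacccgattcgattcGATCcgatatgac
CR43241: tggagaacgatgacGATCttggtcgtatt
CR44221: cgcaatgtcaatgGATCaatgcattcaat

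These starts lay between 2 bp before and 2 bp after the first base of the GATC. Not every high peak began that way. The highest peak of CR43334, at 693 RPM, started at -170 bp from the nearest GATC, and the window there (chr3L:640171-640199) holds no such site.
CR43334, highest peak: ttcgatgggaacactcgtaagtcggaatt

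**Figure D1:**
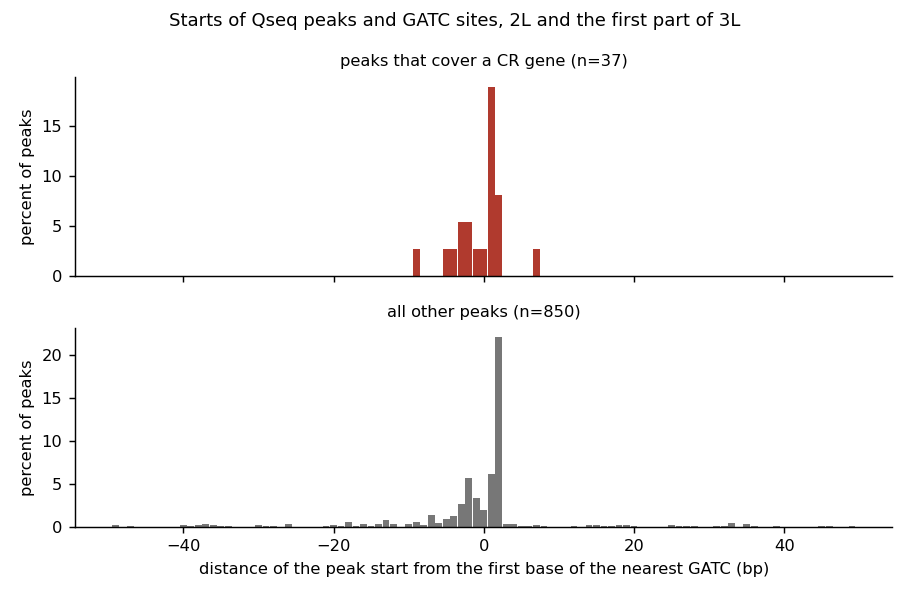
Distance of the start of each Qseq peak from the first base of the nearest GATC, in bp, as a percent of the peaks that cover a CR gene (upper panel, n = 37) and of all other peaks (lower panel, n = 850) on 2L and the first part of 3L. In both panels the starts pile up within 5 bp of a GATC, with 7 CR peaks at 1 bp and 187 other peaks at 2 bp. Of these 7 CR peaks, 6 start on the same 29 bases of the histone repeats.

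At the histone genes, all 20 copies (100%) of sncRNA:430 were named inside a MACS peak and 17 of them (85.0%) inside a Qseq peak. The copies are identical in sequence, 36 bases long, and follow each other at a median of 5045 bp. The first 30 bases of CR33727 (chr2L:21423876-21423905) are given, since they are the same in all copies and 0 of the 20 copies hold a GATC, and after them stands the start of the highest Qseq peak of the array, at CR33736 (chr2L:21487915-21487943), with the GATC in capitals.
CR33727, gene: attcaccgtttgctccggaagggaaactac
CR33736, peak start: gaacagccgtttgGATCtcccgactggtg
The same 29 bases stood at the start of 6 of the peaks. At each of the 20 copies the GATC to the left lay 589 bp before the gene, and the one to the right between 1229 and 1274 bp behind it. Each copy thus lay on 1 fragment of 1853 to 1898 bp between adjacent GATC sites. The 17 Qseq peaks lay within that fragment, except that those of CR33732 and CR33739 started at -3 bp from its left end, and 9 of the 17 started within 10 bp of that end. The MACS peaks started at a median of -56 bp from the left end, from -199 bp outside the fragment to 166 bp inside it.

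The peaks of the lncRNA genes were also searched for the letters bound by E(spl) proteins and Su(H), in the central 400 bp of each peak and on both strands. CACGTG is an E box and CACGCG a class C site, both known from repressors of the Hairy and E(spl) families, CACNAG is the N box, and GTGGGAA is a Su(H) site. CACGTG stood in 1 of 20 lncRNA peaks in the Qseq table (5.0%) and in 4.62% of all 887 Qseq peaks of the same regions. CACGCG stood in 3 of 20 (15%, interval 3.21% to 37.9%) against 9.58%, CACNAG in 9 of 20 (45%) against 38.0%, and GTGGGAA in 1 of 20 (5.0%) against 5.30%. For each of the 4 motifs the share of all peaks lay within the interval that 20 peaks allow. In the windows shown no motif overlaps another of the 4. The windows that held the rarer letters, in capitals, were at CR44221, an antisense gene within kis (chr2L:228797-228825), and at the genes that follow. CR44077 lies between CG3407 and slp1 (chr2L:3818223-3818251), and its peak lay 4464 bp from CG3407 and 7210 bp from slp1. CR43621 lies between gcm and CG3841, and both its peaks held such windows (chr2L:9585492-9585520 and chr2L:9584889-9584917 for CACGCG, chr2L:9584670-9584698 for GTGGGAA). Where the plus strand is shown with the reverse complement, CACGCG reads CGCGTG and GTGGGAA reads TTCCCAC.
CR44221, CACGTG: gaatgcatgtgCACGTGgggaatgggaat
CR44077, CACGCG: gcgcatcctgcCGCGTGgatacccccctg
CR43621, CACGCG, higher peak: tggtcgtgcgcCGCGTGtcgaatgctgtc
CR43621, CACGCG, lower peak: ttgttcgaaagCGCGTGtcattttgcagt
CR43621, GTGGGAA, lower peak: attttcatattTTCCCACgtttaatttgt
The gene kis encodes a chromatin remodeler, gcm a transcription factor of glial fate, and slp1 a forkhead factor of segmentation. A match of letters is a description and not a binding site.

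Of the 229 CR genes, 189 (82.5%) matched a gene of Release 6 by name. These were 79 lncRNA genes, antisense RNAs included, 67 genes of 5S rRNA, 20 of sncRNA:430, 17 of tRNA, 2 of other rRNAs, 3 that now count as protein-coding and 1 pseudogene. The remaining 40 names had no match, and 38 of them lay on unplaced sequence, which has no place on a chromosome arm. The classes had different coverage. Of 96 annotated 5S genes 67 (69.8%) were named in the Qseq table and 6 (6.25%) in the MACS table. Of 312 tRNA genes 8 (2.56%) and 17 (5.45%) were named under a CR name, and tRNA genes under other names were not counted. The names in the tables end at CR44225, and of the 666 lncRNA genes numbered up to there 50 (7.51%) and 73 (11.0%) were named. Both lncRNA shares lay below those of all genes, 10.9% and 14.5%. The count of all genes was not limited to those that the tables could name, so that the shares are not on a like basis. The part of gene length was not tested.

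**Figure D2:**
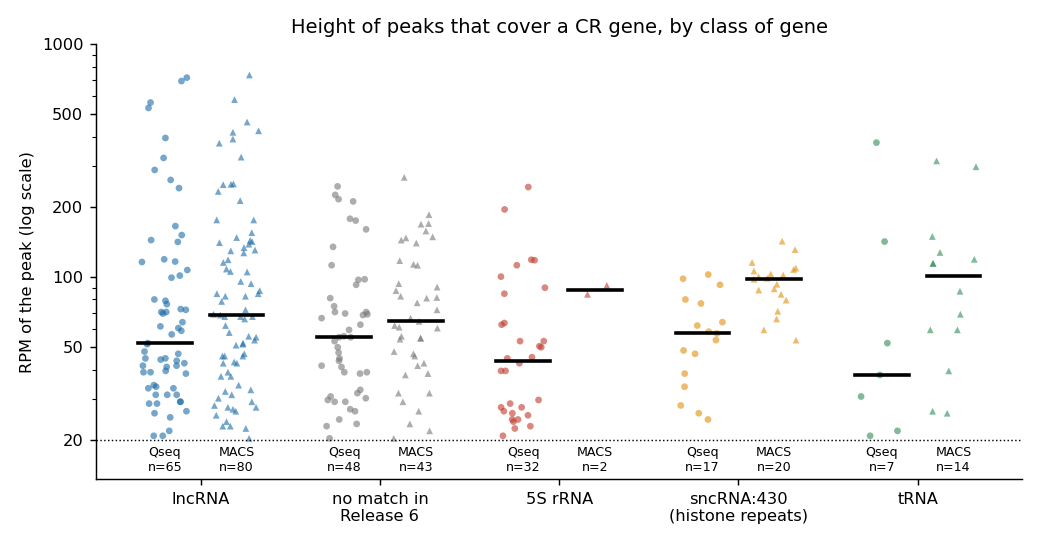
RPM of each peak that covers a CR gene, on a log scale, by class of gene and by caller (circles for Qseq, triangles for MACS, black bars for medians, the dotted line at the threshold of 20 RPM). Of the 5 classes shown the lncRNA genes hold the highest peak in each table, 717 RPM in the Qseq table and 736 RPM in the MACS table, and 5S rRNA has 32 peaks in the Qseq table against 2 in the MACS table.

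The lncRNA genes had 65 Qseq peaks with a median of 51.9 RPM and 80 MACS peaks with a median of 68.8 RPM. The highest Qseq peak of any member lay at CR43644 on 3R, in the E(spl) complex itself. It reached 717 RPM (679 to 756) over 1114 bp and ranked 20 among all Qseq peaks. The nearest coding gene to CR43644 is E(spl)m3-HLH, a sister gene of m8 for another repressor of the same family, 747 bp away. The MACS peak at the same place reached 418 RPM (389 to 448) and ranked 49. The other gene name of both peaks had been shortened to the letter E in the tables.

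CR43334, the host gene of the bantam microRNA, which promotes tissue growth, held several high peaks on 3L. Its 4 Qseq peaks reached 693, 560.5, 151 and 44.7 RPM, the last shared with CR43423. Its 2 MACS peaks reached 736 RPM (698 to 775) and 424 RPM (395 to 454), and the first ranked 8 in its table. The gene is 15466 bp long, and all 4 Qseq peaks lay inside it, the nearest coding gene being at least 5373 bp away from each. The peak of 693 RPM was centred 12693 bp and that of 560.5 RPM 5756 bp downstream of the first base of the gene. The MACS peak of 736 RPM covered the annotated start of a transcript further inside the gene, and the Qseq peak of 693 RPM did not.

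On 2L, CR44080 had a Qseq peak of 531 RPM (499 to 565) and a MACS peak of 390.6 RPM (363 to 420), with 1 GATC in the 1395 bp of the former. The peak covered the 3′ part of the gene and lay 626 bp from CG15425. CR43704 had a Qseq peak of 395 RPM (367 to 424) that covered its start and lay 221 bp from bowl, a gene for a zinc finger transcription factor. The MACS peak of 375 RPM at this place was longer, 1769 bp against 1094 bp, and also covered the start of bowl. On 3L, CR32385 runs opposite to Galphai, which encodes an inhibitory G protein subunit that helps to orient neuroblast divisions. It had Qseq peaks of 324 RPM (299 to 351) and 80.0 RPM and a MACS peak of 327 RPM (302 to 353) over both. CR43905 lies opposite to jing, a gene for a zinc finger protein, and had the longest Qseq peak of a CR gene, 3074 bp, with 261 RPM against 249.9 RPM in the MACS table. These heights differed little between callers for CR32385 and CR43905, and were lower in the MACS table for CR44080.

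Of the 79 lncRNA members, 8 (10.1%) hold a microRNA gene on their own strand, against 10 of the 587 other lncRNA genes (1.70%) that the names could have reached. The members are longer, with a median of 1156 bp against 839 bp. The 8 that hold a microRNA gene range from 2113 bp at CR43857 to 76084 bp at CR43836. All but CR43857 are longer than 2778.5 bp, the upper quartile of the members. The part of length in the difference in microRNA genes was not tested. CR43459, the host of mir-277 and mir-34, had 288 RPM (264 to 313) in the Qseq table and 249 RPM (227 to 272) in the MACS table. It lies 64 bp from Fmr1, the fly gene of the fragile X protein. CR31044, which holds mir-279 and mir-996, had 39.5 RPM (31.1 to 49.4) in a Qseq peak of 747 bp and 233 RPM (212 to 255) in a MACS peak of 2909 bp. CR43650, the host of mir-8, had Qseq peaks of 70.6 and 69.6 RPM and MACS peaks of 93.5 and 57.7 RPM. These 3 hosts and CR43334 were named by both callers, though the Qseq peak of CR31044 lay outside the MACS peak.

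Of the other 4 hosts, 3 were named by a single caller. CR42651, the host of mir-10 whose nearest coding gene is the Hox gene Dfd, had Qseq peaks of 51.9 and 20.8 RPM and no MACS peak. CR43314, the host of mir-bft, had MACS peaks of 105, 43.1 and 22.9 RPM and no Qseq peak. CR43857, the host of mir-275, had a MACS peak of 46.7 RPM that covered its start. Only 1.16% of this peak of 1460 bp lay in the gene, and the peak also overlapped the coding gene chm. CR43836, the host of mir-31b, is 76084 bp long and was named at 5 Qseq peaks of 29.1 to 70.6 RPM and 4 MACS peaks of 26.5 to 130 RPM on X, the most peaks of any CR gene. All of these peaks also named a coding gene, CG42388 or rdgA.

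The lncRNA peaks were placed within their genes where the numbering followed Release 6. In the Qseq table, 4 of 21 pairs of a peak and a lncRNA gene covered the start of the transcript, all 21 touched an exon and 8 lay wholly inside the gene. In the MACS table, whose peaks are longer, 16 of 30 pairs covered the start, 29 touched an exon and 5 peaks lay wholly inside the gene. The exception was the lowest peak of CR43314, at 22.9 RPM, which lay in an intron. CR43621 had a Qseq peak of 46.7 RPM over its start and another of 33.2 RPM further inside, and both lay under a MACS peak of 67.5 RPM that held the whole gene. CR43928, between Pgant4 and Thor, the gene of the translation inhibitor 4E-BP, had 44.7 RPM in the Qseq table and 138 RPM in a MACS peak of 3721 bp that reached the start of Thor. CR43883 on 3L, a gene 5208 bp from the nearest coding gene Sf3b3, lay whole in a MACS peak of 143 RPM, and CR43721, a gene 22047 bp from Osi21, whole in a MACS peak of 67.5 RPM. Neither peak named a coding gene.

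Peaks at lncRNA genes often named a coding gene as well, in 36 of 65 Qseq peaks (55.4%) and 52 of 80 MACS peaks (65.0%). Of the 79 genes, 46 (58.2%) overlap a coding gene in the annotation, against 300 of 587 (51.1%) of the other lncRNA genes, and 35 (44.3%) against 252 (42.9%) run opposite to one. The 33 members without such an overlap lie a median of 1583 bp from the nearest coding gene, and the 287 others a median of 1664 bp. In these measures of position the members lay close to the lncRNA genes that no peak named. For a peak that covers both, the share of the signal that belongs to each gene cannot be told apart.

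Lists of 20 genes of the Notch pathway, 16 of the cell cycle, 10 Hox genes and 22 regulators of neuroblasts were compared with the members. Among Qseq peaks, 0 of 170 CR peaks also covered a gene of these lists. Over all 3973 Qseq peaks, 25 covered a gene of the Notch list and 6 of the cell cycle list. Hox genes and regulators of neuroblasts stood in 14 peaks each. At such low shares few were to be expected among 170 peaks. In the MACS table only Dp, the dimerization partner of E2F, did. Its antisense gene CR43918 is 288 bp long and lay in a peak of 176 RPM (157 to 195) over 2649 bp, with no overlapping Qseq peak. Over all 4209 MACS peaks, 29 covered a gene of the Notch list, 8 of the cell cycle list, 23 a Hox gene and 15 a neuroblast regulator. Counted as genes over all Qseq peaks, 9 of the Notch pathway, 5 of the cell cycle, 5 Hox genes and 7 regulators of neuroblasts were named. Of the 13 genes of the E(spl) complex 11 have a bracket in their symbol, and bracketed names were cut short in the tables, so that this list could not be counted. The Notch list holds 1 bracketed symbol, which could not be counted either.

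The 5S rRNA genes lie on 2R, in an array where genes of 135 bp follow each other at a median of 369 bp. The Qseq table named 67 of the 96 copies in 32 peaks, which together held 1934 RPM and spread over 36660 bp. The peaks ranged from 20.8 to 243 RPM, and the highest (222 to 266) covered 7 copies, CR33418 to CR33411 with CR33416 left out, over 2845 bp. A total of 10 peaks covered a single copy and had 20.8 to 39.5 RPM. Per copy the peaks held a median of 25.3 RPM, from 11.4 to 42.3, and per kb a median of 76.1 RPM, from 54.5 to 118. The MACS table had 2 peaks there, of 91.9 RPM over CR33357 to CR33359 and 84.1 RPM over CR33353 to CR33355, and 3 of the 32 Qseq peaks lay under them. No coding gene was named in these peaks.

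At the sncRNA:430 copies on 2L the MACS table had more peaks that named a member. The 17 Qseq peaks lay between 24.4 and 102 RPM and summed to 990 RPM (median, 57.1 RPM). The 20 MACS peaks lay between 53.5 and 142 RPM and summed to 1895 RPM (median, 98.2 RPM). Part of this difference lay in which peaks reached the short gene, since 26 Qseq peaks with 1322 RPM in all lay under 18 of the MACS peaks, which held 1649 RPM, and 9 of the 26 did not name the copy. Per kb of peak the levels were close, at a median of 56.2 RPM for Qseq and 50.4 RPM for MACS, and the MACS peaks were longer, with a median of 1908 bp against 1016 bp. CR33736 at 102 RPM, CR33733 at 98.2 RPM and CR33730 at 92.5 RPM were the highest in the Qseq table. CR33728 at 142 RPM, CR33735 at 131 RPM and CR33731 at 115 RPM were the highest in the MACS table, and no Qseq peak overlapped the last 2 of these. Under the MACS peak of CR33744 lay 2 Qseq peaks, of 52.5 and 30.6 RPM, that did not reach the gene. Among the 20 fragments only 9 different sequences occurred, and the commonest was shared by 5 copies. The sources used here do not say how reads that fit several copies were placed, so that the levels of single copies cannot be told apart, and the same holds for 5S rRNA. All of these peaks also named histone genes.

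**Figure D3:**
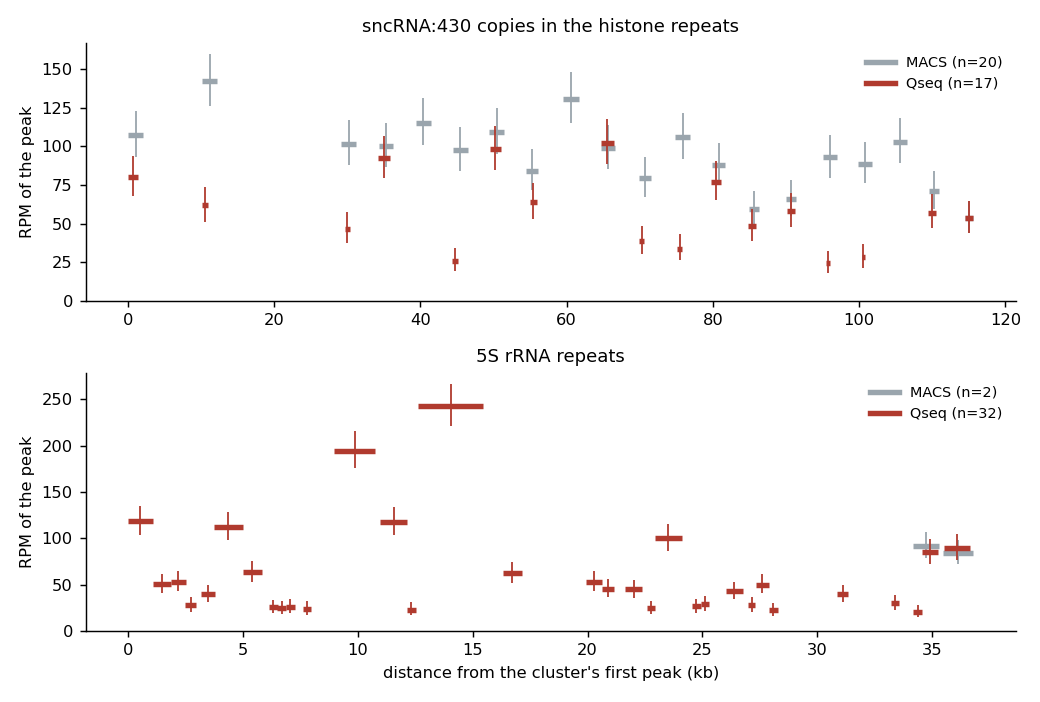
RPM of the peaks along the 2 tandem arrays against the distance from the first peak of the array in kb (horizontal bars, the length of the peak; vertical lines, the 95% Poisson interval; red for Qseq, grey for MACS). At the sncRNA:430 copies the MACS peaks reach 142 RPM and the Qseq peaks 102 RPM, and at the 5S rRNA copies 32 Qseq peaks of up to 243 RPM stand beside 2 MACS peaks.

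The tRNA genes had few but at times high peaks. The pair CR30250 and CR30251, for tRNAs of histidine, lay in a Qseq peak of 377 RPM (350 to 406) that also named CG8490 and CG34021, and in a MACS peak of 315 RPM (290 to 341). CR30241, for a leucine tRNA, had 142 RPM in the Qseq table and 297 RPM in the MACS table. CR31506, for another leucine tRNA inside a peak at bon, a gene for a chromatin cofactor, had 21.8 and 114 RPM. Of the 17 tRNA members, 9 were named by MACS alone. Among them were CR32370, for an alanine tRNA, at 149 RPM in a peak with nmo, a gene for a protein kinase, and CR31130, for a leucine tRNA, at 127 RPM in a peak with jar, the gene of myosin VI. A coding gene was named in 5 of 7 Qseq and 11 of 14 MACS peaks of tRNA genes, so that most tRNA peaks were not theirs alone. The other rRNA names had low peaks. CR41548, of 18S rRNA, had 37.9 and 36.4 RPM, and CR40454, of 5.8S rRNA, had 45.7 RPM in the MACS table.

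The 3 names that now stand for coding genes had only MACS peaks. CR43920, now CG43920, lay in the highest peak of the whole MACS table, at 1272 RPM (1222 to 1324) from 2449 reads over 1861 bp. The same peak also named lack, the gene of a ubiquitin ligase, and CG11423, and no Qseq peak overlapped it. CR43051 had 35.3 RPM in a peak with bun, and CR43844 had 24.4 RPM in a peak with CG6678. The pseudogene CR42875 had 23.9 RPM.

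The 40 names without a match had short and dense peaks. Their 48 Qseq peaks had a median height of 55.1 RPM, a median length of 469 bp and a median density of 141 RPM per kb, against a median density of 61.5 RPM per kb for the lncRNA genes. The 43 MACS peaks had a median of 64.4 RPM over 830 bp. The highest were CR40779 with 245 RPM (223 to 268) in the Qseq table and 168 RPM (150 to 188) in the MACS table, CR40503 with 225 and 69.6 RPM in 2 Qseq peaks and 268 RPM (245 to 292) in the MACS peak over both, CR40621 with 216 and 144 RPM, and CR40582 with 211 and 185 RPM. The shortest Qseq peaks, of 204 to 221 bp, lay at CR41606, CR41607, CR41540 and CR40959. None of these peaks named a coding gene. Of the 48 Qseq peaks 46 (95.8%) lay under a MACS peak, against 70.8% of the other Qseq peaks on unplaced sequence. On unplaced sequence the other 305 Qseq peaks had a median of 39.5 RPM and 84.5 RPM per kb, so that the CR peaks there were denser, though their lengths were alike, 465.5 against 455 bp.

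CR peaks were compared with the other peaks that named a gene. In the Qseq table, the 170 CR peaks had a median of 50.9 RPM, 680 bp and 75.4 RPM per kb, and the 2799 others 41.0 RPM, 773 bp and 56.4 RPM per kb. On the chromosome arms alone the medians were 49.1 RPM, 829.5 bp and 64.3 RPM per kb for 122 CR peaks, against 41.0 RPM, 777 bp and 56.2 RPM per kb. In the MACS table, the 164 CR peaks had a median of 79.0 RPM and 1176 bp, and the 3132 others 55.6 RPM and 1147 bp. The middle of the CR peaks thus stood above that of the others in both tables, but the ranges overlapped. Of the 100 highest peaks 7 in the Qseq table and 9 in the MACS table covered a CR gene, where CR peaks make up 4.28% and 3.90% of all peaks. A coding gene was named in 58 CR peaks (34.1%) of the Qseq table and 87 (53.0%) of the MACS table. The peaks at CR43644 and CR43493 in both tables carried a gene name cut short and were counted as without a coding gene.

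The callers were compared over 127 pairs of overlapping peaks that named the same CR gene. The MACS peak had a median of 1.13 times the RPM of the Qseq peak, and 0.772 times its RPM per kb. In 52 pairs the Qseq peak was the higher one. At CR43644 and CR44080 the MACS peak held the whole Qseq peak and still had the lower RPM. The callers thus did not count the same reads, and the ratios also carry that difference. The smallest ratios were those of CR43644 (0.583), CR40621 (0.667), CR40779 (0.688), CR43431 (0.713, with 82.6 and 116 RPM) and CR44080 (0.735). These are all peaks over 100 RPM in the Qseq table. The largest ratios came from MACS peaks that ran far beyond the Qseq peak and were also denser. Their RPM per kb was 1.95 times that of the Qseq peak at CR44065 and 1.60 times at CR44082. At CR30055 it was 1.24 and 1.29 times. CR30055, opposite to Sin3A, the gene of a corepressor scaffold, had 251 RPM over 3996 bp in the MACS table and 42.6 RPM over 841 bp and 24.9 RPM over 511 bp in the Qseq table. CR44065 had 176 RPM over 2225 bp against 20.8 RPM over 514 bp. CR44082, opposite to RapGAP1, a gene for an activator of a small GTPase, had 577 RPM (544 to 612) over 4252 bp, the longest MACS peak of a CR gene, against 101 RPM (87.6 to 117) over 1196 bp. In the Release 6 annotation the CR gene takes 8.98% of the MACS peak for CR44082 and 22.0% for CR44065. CR43611 had 462 RPM (432 to 494) in a MACS peak, over 2 Qseq peaks that did not name it.

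**Figure D4:**
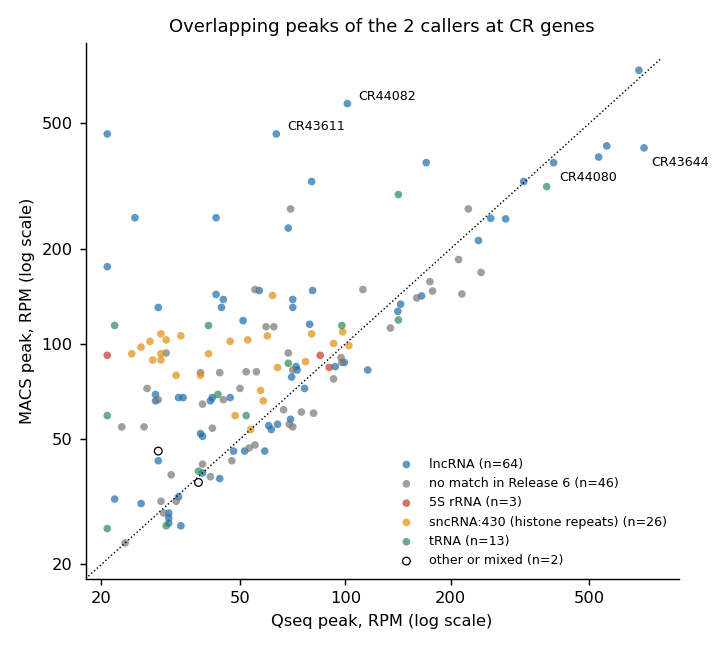
RPM of each MACS peak against that of the Qseq peak it overlaps, both on log scales, for the 154 overlapping pairs in which at least 1 peak names a CR gene, by class (dotted line, equal RPM). The pairs at CR44082 and CR43611 lie far above the line, and those at CR43644 and CR44080 below it.

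Of the Qseq peaks at CR genes, 127 of 170 (74.7%) lay under a MACS peak, against 76.9% of the other gene peaks. By class the shares were 53 of 65 for lncRNA, 17 of 17 for sncRNA:430, 7 of 7 for tRNA and 3 of 32 for 5S rRNA. Of the 67 genes named by Qseq alone 0 were found among the 1310 weaker MACS peaks either, and 61 of them are 5S copies. CR32865, the alphagamma-element of the heat shock locus on 3R, was among the other 6, with Qseq peaks of 119, 107 and 26.5 RPM and no MACS peak.

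CR peaks were spread unevenly over the chromosomes. Of the 170 Qseq peaks, 48 (28.2%, 21.6% to 35.6%) lay on unplaced sequence, against 0.607% of the other gene peaks. On 3L lay 12 (7.06%, 3.70% to 12.0%) against 20.3%, and on 3R 21 (12.4%) against 24.9%. On 2L lay 31 (18.2%) against 18.2%, on X 14 (8.24%) against 13.4%, on 2R 44 (25.9%) against 21.5% and on chromosome 4 lay 0 of 170, which allows a share of up to 2.15%, against 0.464%. The tandem arrays made up much of the numbers on chromosome 2, with 32 peaks of 5S rRNA on 2R and 17 of sncRNA:430 on 2L. These arrays and the unplaced peaks enter the total of 170 and so lower the shares of 3L, 3R and X. Of the 65 lncRNA peaks 12 lay on 3L, 18 on 3R, 13 on X, 14 on 2L and 8 on 2R. The low shares on 3L, 3R and X thus do not describe the lncRNA genes. In the MACS table, which had 2 peaks at 5S rRNA, 17 CR peaks (10.4%) lay on 2R and 46 (28.0%) on 2L. The few CR peaks of 3L were high, with a median of 116 RPM against 41.6 RPM for all Qseq peaks of that arm. On unplaced sequence lay 353 of all 3973 Qseq peaks, and apart from the CR peaks only 17 of them named a gene. The high share of CR peaks there cannot be told apart from how that sequence was annotated.

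**Figure D5:**
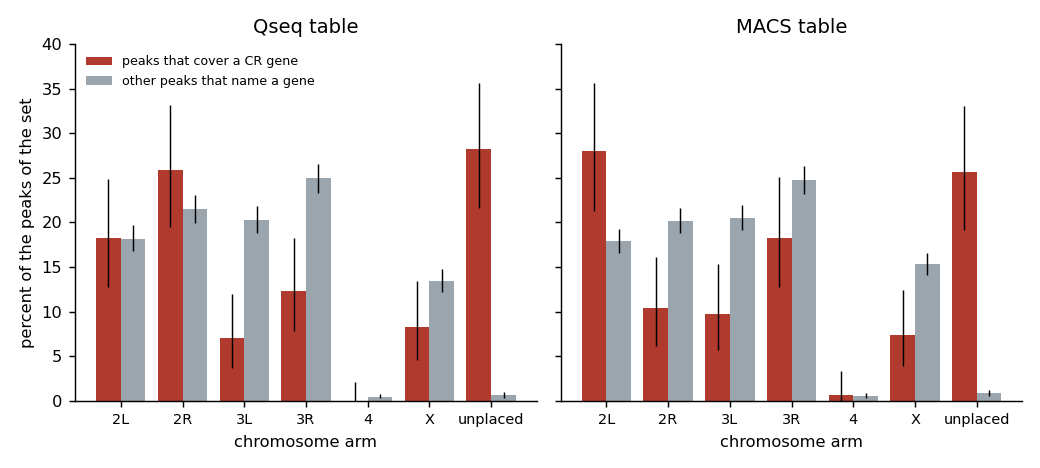
Percent of the peaks on each chromosome arm and on unplaced sequence, for peaks that cover a CR gene (red) and other peaks that name a gene (grey), in each table (bars, percent; lines, 95% Clopper-Pearson interval). Unplaced sequence holds 28.2% of the CR peaks against 0.607% of the others in the Qseq table, and 25.6% against 0.830% in the MACS table. Apart from the CR peaks, only 17 Qseq and 26 MACS peaks there name a gene. The difference cannot be told apart from how that sequence was annotated.

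The members just above 20 RPM were CR44065, CR30215, CR33359 and CR42651 with 20.8 RPM and CR41583 with 20.3 RPM in the Qseq table, and CR40679 with 21.8 RPM and CR44035 and CR42745 with 20.3 RPM in the MACS table. These Qseq members were also named at a higher peak of either table, which reached 176 RPM for CR44065. Just below the threshold, in the table of weaker MACS peaks, stood CR40611 with 19.7 RPM, CR43622 with 19.2 RPM and CR40560 with 18.7 RPM, of which only CR40560 is a member by its other peaks.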

How the data were processed

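The tables came from 1 DamID library, taken by its label as one of embryos with un-driven UAS-m8-DamID. The authors assembled single reads of 100 bp with DNASTAR SeqMan NGen and gave each peak as RPM, the reads of the peak per 1000000 reads of the library. For Qseq peaks the deposited count of reads is given beside the RPM. The RPM of the MACS peaks came out as whole reads of that library, with a tolerance of 0.01 reads, in 100.0% of peaks. Yet the 2 callers did not count the same reads. At CR43644 the MACS peak held all of the Qseq peak but had 418 RPM against 717 RPM. Heights of the 2 callers are thus not the same measure, and the cause was not tested. RPM grows with the length of a peak, so that RPM per kb is given too. Qseq peaks had an RPM above 20 and a p-value under 0.05, per the file headers, and for MACS the sources used here give no version and no settings other than cut-offs in the sheet names. The p-value columns were not used, and 2 sheets that repeat the Qseq rows in part or in whole were left out. Of the columns of values, 0 were left unmatched.

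Members were found by splitting the gene cells at commas and semicolons, and their kind was taken from RefSeq Release 6 by symbol or by an unambiguous synonym. The labels name dm 6, but positions did not follow it throughout. Genes named in a Qseq peak overlapped that peak in 96.8% of 650 cases on 2L and in 173 of 173 on 3L below 5000000, against 53.0% on the rest of 3L, 3.19% on X and 0% on 2R and 3R. Sequence, exons and distances from peaks were therefore read only from 2L and that part of 3L, and lengths and neighbours of genes on other arms from the annotation alone. Peaks were taken as overlapping from 1 bp, and a coding gene was told by its Release 6 type.

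No test was made, since the tables hold a single library and no control. Intervals are exact, at 95%. The functions were tested on simulated data. The members and lists were chosen with earlier results of these data known. Genes were named by rank of RPM, ratio of callers, length, number of peaks, nearness to the threshold, position on 2L or a shared peak with a listed gene, and the naming of other members followed a look at their values. Alternatives were the MACS table, 40 RPM, the arms alone, matched names, coding genes told by name, each gene once, an overlap of 50%, both MACS tables, the central 400 bp and leaving out the tandem arrays. Software was Python 3.11.15, matplotlib 3.10.9, scipy 1.17.1, pandas 2.3.3 and numpy 2.4.6.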

Additional observations from a re-analysis of the deposited data

Results flagged for a closer look

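The strongest signal beside a CR gene lay outside the peaks described so far, in a Qseq peak that covered no gene. It lay on unplaced sequence, with CR41619 and CR40596 given as its neighbours, and reached 4975.181 RPM (4876 to 5076) from 9578 reads over 339 bp. Of the 1004 Qseq peaks between genes, 244 (24.3%) had a CR gene as a neighbour, and these named 99 CR genes of which 65 are not members. In the MACS table the highest such peak had 411 RPM. No control library was at hand to compare it with, and its origin was not tested.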

How the results depend on the processing

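No paired analysis was possible because 1 library is all that the peak tables contain. Of 24 values under an alternative, 12 stayed close to those reported and 12 moved. With the MACS table the median height of a CR peak went from 50.9 to 79.0 RPM, its median length from 680 to 1176 bp, its median density from 75.4 to 55.3 RPM per kb, and the share with a coding gene from 34.1% to 53.0%. On the arms alone, the length was 829.5 bp, the density 64.3 RPM per kb and the share with a coding gene 47.5%. With each gene once, at its highest peak, the median was 62.3 RPM. Leaving out the 5S rRNA and sncRNA:430 arrays, an alternative chosen after seeing the data, as was the use of 3L below 5000000, gave 95 genes in place of 179, 86.3 RPM per kb, an overlap with MACS peaks of 88.4% in place of 74.7%, and 2.66 GATC sites per kb on 2L in place of 0.0 (1.11 with the MACS table). The causes were not tested. At 40 RPM or more 135 genes remained, and with matched names 143. A peak at the threshold of 20 RPM rests on about 39 reads (14.4 to 27.7 RPM for CR41583), so that neighbours in height near it cannot be told apart.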
